A study of Mus musculus with 4 samples.

Results

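Aquaporins are channel proteins that carry water, and in some members glycerol, across cell membranes, and 8 of them were followed here by cell type in mouse testicular organoids (TOs) and mouse testes. The members were Aqp1, Aqp3, Aqp4, Aqp5, Aqp7, Aqp8, Aqp9 and Aqp11, taken by symbol from the 32285 genes in the count matrices. They were chosen with it known from these data that Aqp8 was nearly absent from the Sertoli cells of TOs, so for Sertoli cells the values of TOs against testes are a description without a test.

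Cells of 2 TO libraries and 2 testis libraries were profiled by droplet single-cell RNA-seq (10x, 3′ ends), in which each captured transcript is counted once as a unique molecular identifier (UMI). The TOs were spheroids of dissociated testis cells from ICR mice 5 to 6 days old, embedded in basement membrane extract and cultured in medium with knockout serum replacement, follicle-stimulating hormone, testosterone and antioxidants. They were labelled as 28 days old in the design text and as day 21 in the dissociation protocol, and were compared with testes of 28-day-old mice. No sorting was labelled. By the methods, the organoids came from 2 independent batches and the testis libraries were biological replicates, and the labels do not tie a TO library to a batch. The p-values below rest on 2 libraries a group.

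The libraries held 14643 and 12491 barcodes in TOs and 12179 and 11826 in testes, and after filtering 37898 cells remained, with a median of 5479 and 7561 UMIs per cell in TOs and 2549 and 3271 in testes. Between 21 and 31 barcodes were shared by any pair of libraries. Cell types were named from marker genes, so each name below stands for cells like that type. Sox9, Wt1, Cldn11, Rhox8, Aard and Fshr, markers of Sertoli cells, were above 100 UMIs of a gene in 1000000 UMIs of those cells (CPM) in the Sertoli cells of all 4 libraries, while Amh was at 1.08 to 21.0 CPM. No cells named endothelial or elongating spermatid were found in TOs, and none named rete testis in testes. The TO cells named rete testis and the testis cells named endothelial came from 1 shared cluster, 18, which was named apart by condition. TO round spermatids numbered 19 and 29 cells, against 4085 and 2948 in testes.

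Most aquaporins sit in the plasma membrane as tetramers of single pores. Aqp1, Aqp4, Aqp5 and Aqp8 pass mainly water, Aqp3, Aqp7 and Aqp9 are aquaglyceroporins that also pass glycerol, and Aqp11 is a distant member found in intracellular membranes. In the testis, Sertoli cells secrete the fluid that fills the seminiferous tubules, the rete testis and efferent ducts carry and resorb it, and spermatids lose much of their volume as they elongate.

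The 8 genes lay at 8 positions of GRCm38. Aqp8 (ENSMUSG00000030762) spanned chr7:123462291-123468004 and Aqp11 (ENSMUSG00000042797) chr7:97724006-97738289. Aqp5 (ENSMUSG00000044217) was at chr15:99590782-99594829, Aqp1 (ENSMUSG00000004655) at chr6:55336432-55348555 and Aqp9 (ENSMUSG00000032204) at chr9:71110659-71168682. Aqp3 (ENSMUSG00000028435) and Aqp7 (ENSMUSG00000028427), both on the minus strand of chromosome 4, were separated by 44582 bp. Aqp4 was ENSMUSG00000024411. Of the 8, Aqp4 and Aqp9 overlap annotated genes on the opposite strand in GENCODE, and whether the counting used strand is not given in the sources used here.

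Promoters are printed for the 4 genes on which the results turn, Aqp8 and Aqp5, which had opposite values in Sertoli cells, and Aqp7 and Aqp11, which were both highest in spermatids. Each runs from 250 bases before to 50 bases after the start of transcription, 5′ to 3′ on the strand of the gene, from RefSeq on GRCm38.p6 (the first of 2 listed starts for Aqp7). By the GENCODE gene start of Aqp5 given above, 99590782, its window lies almost wholly after the start. Capitals mark CG, which reads the same on both strands.
Aqp8 promoter, chr7:123462044-123462343, + strand: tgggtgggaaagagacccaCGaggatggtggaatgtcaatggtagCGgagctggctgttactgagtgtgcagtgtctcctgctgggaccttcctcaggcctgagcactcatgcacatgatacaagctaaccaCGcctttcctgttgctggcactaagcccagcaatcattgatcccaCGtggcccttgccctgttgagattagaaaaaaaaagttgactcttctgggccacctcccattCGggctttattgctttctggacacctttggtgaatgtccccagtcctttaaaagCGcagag
Aqp5 promoter, chr15:99590778-99591077, + strand: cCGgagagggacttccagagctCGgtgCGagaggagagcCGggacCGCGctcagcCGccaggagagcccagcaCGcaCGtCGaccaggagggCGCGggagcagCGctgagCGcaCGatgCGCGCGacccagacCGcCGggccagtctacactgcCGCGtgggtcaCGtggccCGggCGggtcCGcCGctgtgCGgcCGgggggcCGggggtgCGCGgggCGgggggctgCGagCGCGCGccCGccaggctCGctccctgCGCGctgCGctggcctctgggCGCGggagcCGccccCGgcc
Aqp7 promoter, chr4:41048087-41048386, - strand: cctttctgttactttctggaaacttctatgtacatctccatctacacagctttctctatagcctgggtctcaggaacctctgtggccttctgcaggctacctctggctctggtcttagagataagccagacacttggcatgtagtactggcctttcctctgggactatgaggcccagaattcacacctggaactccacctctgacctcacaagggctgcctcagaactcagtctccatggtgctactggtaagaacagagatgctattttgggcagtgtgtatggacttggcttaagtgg
Aqp11 promoter, chr7:97738198-97738497, - strand: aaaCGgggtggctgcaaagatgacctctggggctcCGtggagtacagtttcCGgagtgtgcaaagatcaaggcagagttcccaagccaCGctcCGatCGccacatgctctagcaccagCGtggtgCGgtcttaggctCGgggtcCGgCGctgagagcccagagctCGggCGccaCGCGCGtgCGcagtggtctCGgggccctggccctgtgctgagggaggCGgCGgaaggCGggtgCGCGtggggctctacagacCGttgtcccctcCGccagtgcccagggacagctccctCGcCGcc
The Aqp5 promoter held 46 CG and was 79.7% G or C, and 1.65% of the 32851 RefSeq promoters of this length held at least as many CG. The Aqp8 promoter held 6 CG at 52.0% G or C, and 56.4% of promoters held at least as many. The Aqp11 promoter held 27 CG at 68.0%, a number reached by 15.5% of promoters, whereas the Aqp7 promoter held 0 at 49.7%. The median promoter held 7 CG. RefSeq promoters were matched for 7 of the 8 members, and none was matched for Aqp4.

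Aqp8, a water channel of secretory epithelia, was found mainly in the Sertoli cells of testes. Its sum over Sertoli cells was 457 and 249 UMIs in testes, against 11 and 6 in TOs. Scaled to the UMIs of those cells, this was 178 and 181 CPM in testes (180 ± 2.6, SD, n = 2) and 0.78 and 0.813 CPM in TOs (0.796 ± 0.0235, SD, n = 2). Both testis libraries stood far above both TO libraries, and the pooled level was 226-fold higher in testes, with an exact 95% counting interval of 140 to 390. This and all other intervals and floors given here cover counting error only.

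Per cell, Aqp8 was found in 183 of 466 (39.3%) and 58 of 255 (22.7%) testis Sertoli cells and in 11 of 1508 (0.729%) and 6 of 728 (0.824%) TO Sertoli cells. The testis Sertoli cells were the shallower ones, with a median of 6128 and 3036 UMIs against 10066 and 11342 in TOs. When each cell was thinned to 1500 UMIs, the shares were 18.9% and 12.9% in testes and 0.0673% and 0.0% in TOs. Round spermatids of testes, which had a median of 2242 and 2412 UMIs, gave 1.05% and 0.305%, or 0.367% and 0.102% after thinning. The TO Sertoli cell shares were within the range of the round spermatid shares before thinning and below it after thinning. These round spermatids came from the testis libraries, so they give no background level for TOs. Within TOs, Aqp8 was highest in Sertoli cells without overlap, at a mean of 0.796 CPM against 0.0903 CPM in myoid cells. The highest count in 1 cell was 9 and 21 UMIs in testis Sertoli cells and 1 in each TO library.

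In testes, Aqp8 outside Sertoli cells did not exceed 2.15 CPM in any named type of either library. The order of mean levels after Sertoli cells was stromal 1.5, round spermatid 1.33, elongating spermatid 1.23, myoid 1.08, Leydig 0.987, spermatocyte 0.984, endothelial 0.762, macrophage 0.696 and spermatogonia 0.474 CPM, and each of these overlapped its neighbour. As a percentage of the Sertoli cell level in the same library, Aqp8 was at 0.0 to 1.21% in these types and Cldn11, a tight junction gene of Sertoli cells, was at 0.0 to 1.34%. The 7 Sertoli markers together were at 0.452% to 8.79%, highest in endothelial cells of testis replicate 1. The part of Sertoli RNA in these Aqp8 levels was not tested. Outside Sertoli cells of TOs, Aqp8 was seen as 2 UMIs in myoid cells and 1 in stromal cells of TO replicate 1. Sertoli cells therefore held 86.2% and 90.9% of all Aqp8 UMIs in the kept cells of testes.

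The Sertoli cells fell into several clusters, and the clusters that held them differed between libraries. In testis replicate 1, cluster 7 (317 cells, median 6932 UMIs) had 195 CPM of Aqp8 and cluster 15 (128 cells, median 1851 UMIs) had 62.7 CPM. In testis replicate 2, cluster 24 (103 cells, median 9913 UMIs) had 237 CPM and cluster 23 (112 cells, median 1977 UMIs) had 41.0 CPM. The deep clusters thus carried most Aqp8 in both testis libraries. Sox9 was at 243 CPM in cluster 7 of replicate 1 and 343 CPM in cluster 24 of replicate 2. In the shallow clusters 15 and 23 it was at 33.2 and 28.7 CPM. The 7 round spermatid markers summed to 1869 and 1582 CPM in clusters 15 and 23, against 433 and 207 CPM in 7 and 24. The testis shares and levels of Sertoli cells given here pool these clusters. The 28 cells of cluster 7 in testis replicate 2 had 1 Aqp8 UMI. In TOs, clusters 7 and 15 held 966 and 394 cells in replicate 1 and 515 and 188 in replicate 2, with at most 1.04 CPM. Restricted to Sertoli cells of at least 3000 UMIs, Aqp8 was at 194 and 215 CPM in testes and 0.8 and 0.699 CPM in TOs.

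**Figure D1:**
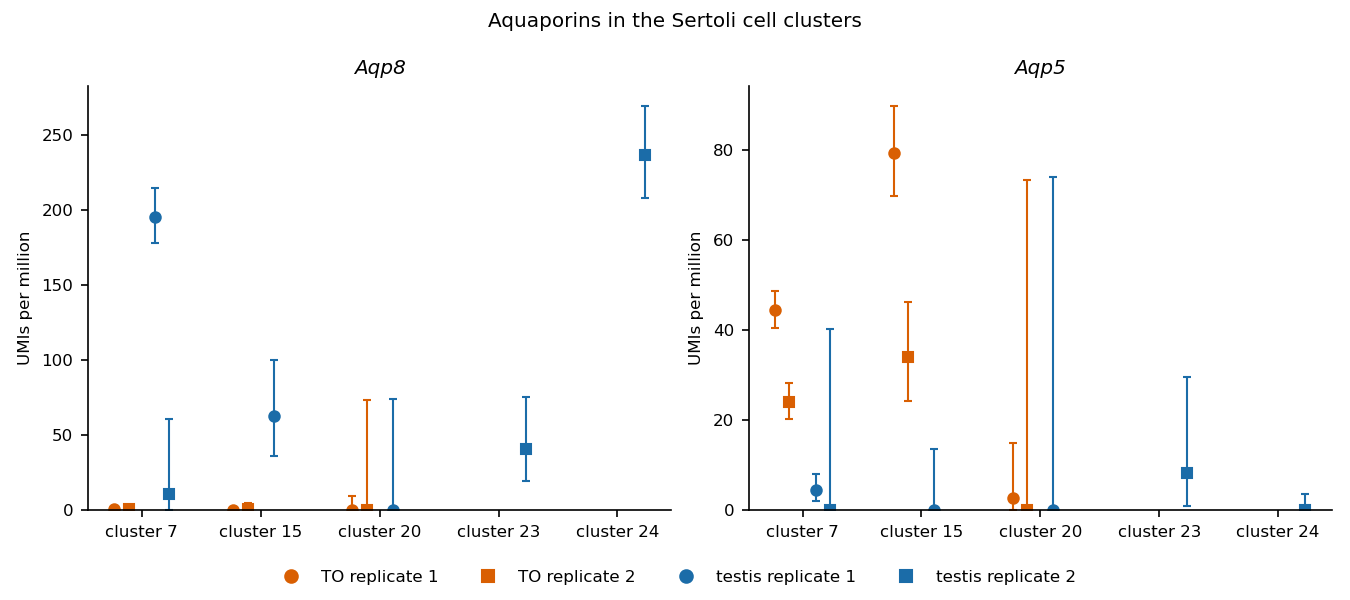
Aqp8 and Aqp5 in CPM (linear axis) in each Sertoli cell cluster with at least 20 cells in a library, with points for libraries and exact 95% counting intervals as bars. Aqp8 reached 237 CPM in testis clusters and at most 1.04 CPM in TO clusters 7 and 15, and Aqp5 reached 79.1 CPM in TO clusters.

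Aqp5, a water channel best known from salivary, lacrimal and sweat glands, had the opposite values. Sertoli cells held 720 and 188 Aqp5 UMIs in TOs and 10 and 2 in testes. The levels were 51.0 and 25.5 CPM in TOs (38.3 ± 18.1, SD, n = 2) and 3.89 and 1.46 CPM in testes (2.67 ± 1.72, SD, n = 2). The groups did not overlap, TO replicate 1 was above TO replicate 2, and the pooled level was 13.9-fold higher in TOs (7.92 to 27.0). At the mean TO level, the 2 testis sums would have held 98.4 and 52.5 UMIs.

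Aqp5 was found in 454 (30.1%) and 147 (20.2%) TO Sertoli cells and in 10 (2.15%) and 1 (0.392%) testis Sertoli cells. After thinning to 1500 UMIs these shares were 7.54% and 4.18% in TOs and 0.215% and 0.392% in testes. Testis round spermatids gave 0.0734% and 0.0339%, and 0.0% in both after thinning. A cell with both Aqp8 and Aqp5 was seen 4 and 3 times in TOs and 6 and 0 times in testes. In the TO clusters, Aqp5 was at 44.4 and 24.1 CPM in cluster 7, 79.1 and 34.0 CPM in cluster 15, and 2.68 and 0.0 CPM in cluster 20, whose 148 and 25 cells had a median of 2262 and 1717 UMIs.

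The second site of Aqp5 was the Leydig cell, the testosterone-producing cell of the interstitium. Leydig cells held 737 and 109 Aqp5 UMIs in TOs and 45 and 58 in testes, which was 40.4 and 5.82 CPM against 12.5 and 17.1 CPM. The means were 23.1 ± 24.5 in TOs and 14.8 ± 3.25 in testes (SD, n = 2), and the TO libraries lay on both sides of the testis libraries. The log2 fold change was 0.56 (SE 0.78, adjusted p = 0.652 by edgeR's quasi-likelihood test with Benjamini-Hochberg adjustment over all genes). It was -1.41 without TO replicate 1 and 1.37 without TO replicate 2 (adjusted p = 0.093 and 0.0367), so the direction rested on 1 library. Among all genes that could be called in Leydig cells, 2.06% were higher and 3.42% lower in TOs at an adjusted p below 0.01 and a log2 fold change beyond 1, the thresholds used throughout. The shares of Leydig cells with Aqp5 were 17.8% and 4.49% in TOs and 6.32% and 12.0% in testes, at medians of 10766, 12399, 6166 and 9820 UMIs, and 4.25%, 0.513%, 1.4% and 2.64% after thinning.

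The TO replicate with more Aqp5 in Leydig cells also had more of 2 Leydig products. In cluster 1, which held most Leydig cells of every library, Cyp17a1, an enzyme of androgen synthesis, was at 1157 and 82.1 CPM in TOs and 3807 and 11068 CPM in testes. Insl3, a peptide hormone of Leydig cells, was at 2256 and 148 CPM in TOs and 3342 and 1737 CPM in testes. Whether Aqp5 depends on the state of these cells was not tested.

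In the other named TO types, Aqp5 was at 4.36 CPM or below. In stromal cells it was at 4.36 and 0.527 CPM in TOs, which was 10.8% and 9.06% of the Leydig cell level of the same library, with Insl3 at 10.5% and 12.6% and the 6 Leydig markers together at 4.88% and 1.64%. In myoid cells of TOs it was at 3.25 and 0.0853 CPM, or 8.03% and 1.47% of the Leydig level, with Insl3 at 7.54% and 8.42% and the 6 markers at 3.72% and 1.57%. In TO spermatogonia Aqp5 was at 5.51% and 5.32% and Insl3 at 1.31% and 1.44%, and in TO macrophages Aqp5 was at 3.74% and 11.5% and Insl3 at 2.91% and 1.64%. All 6 Leydig markers were detected in both types, and their summed level was 350 and 58.4 CPM in TO myoid cells and 458 and 61.2 CPM in TO stromal cells, against 33.6 to 60.9 CPM in these types of testes. In TO Sertoli cells, Aqp5 was at 126% and 438% of the Leydig level, with Insl3 at 1.13% and 0.452% and all 6 markers together at 1.87% and 2.02%. The part of Leydig RNA in these Aqp5 levels was not tested.

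In testes, stromal cells held 5 and 3 Aqp5 UMIs (3.6 and 2.35 CPM) and spermatogonia 12 and 4 (3.8 and 2.82 CPM). Insl3 in these types was at most 0.496% of its Leydig level, while Aqp5 was at 13.7% to 30.4% of its own. Testis myoid cells, macrophages and endothelial cells held 0 Aqp5 UMIs, against 36 and 1 in TO myoid cells and 3 and 3 in TO macrophages. The myoid level was at least 1.8-fold higher in TOs, taking 3 counts over the group as the floor, and rested on TO replicate 1, since TO replicate 2 was at 0.0853 CPM. Spermatogonia of TOs held 11 and 1 UMIs (2.23 and 0.309 CPM; 1.27 ± 1.36 against 3.31 ± 0.687 in testes, SD, n = 2). In the testis order of Aqp5, Leydig cells came first without overlap, whereas in TOs Sertoli and Leydig cells overlapped.

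Aqp1, the water channel of capillaries and of the efferent duct epithelium, was found in TOs mainly in stromal cells, which held 65.9% and 63.1% of its UMIs, and in rete testis-like cells, which held 27.9% and 29.1%. In the rete testis-like cells of TOs it was at 36 and 30 UMIs, or 80.5 and 42.9 CPM (61.7 ± 26.6, SD, n = 2), in 10 of 67 and 12 of 79 cells. These cells had Pax8 at 441 and 546 CPM, Krt8 at 170 and 226 CPM and Cdh1 at 315 and 196 CPM, but Krt7 at only 2.24 and 1.43 CPM. They also had markers of Sertoli cells, Wt1 at 921 and 579 CPM and Sox9 at 286 and 240 CPM, and Kdr, an endothelial receptor, at 226 and 116 CPM, while Pecam1 was at 0 UMIs in both libraries. No such cells were named in testes. The testis cells of the same cluster, 18, were named endothelial and had Pax8 at 0.0 CPM in both libraries. The level therefore has no counterpart of the same name there.

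Stromal cells, the fibroblast-like cells between the tubules, held 85 and 65 Aqp1 UMIs in TOs and 1 and 0 in testes. The levels were 6.99 and 2.85 CPM in TOs (4.92 ± 2.92, SD, n = 2) and 0.719 and 0.0 CPM in testes, and the groups did not overlap. At the mean TO level the testis sums would have held 6.84 and 6.29 UMIs. The ratio of pooled levels was 11.5 (2.03 to 455). The log2 fold change was 3.73 (SE 1.17), which did not pass (adjusted p = 0.0572 by edgeR's quasi-likelihood test). In stromal cells 1.82% of all genes were called higher and 13.7% lower in TOs.

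Within the TO stromal cells, Aqp1 was at 9.46 and 2.6 CPM in cluster 2 and 4.19 and 3.18 CPM in cluster 3. Of the 5 rete testis markers, 4 were detected in TO stromal cells, at a summed level of 0.658 and 0.439 CPM, against 1067 and 1044 CPM in the rete testis-like cells. All 6 endothelial markers were detected in stromal cells of both conditions, at 106 and 122 CPM in TOs and 72.7 and 102 CPM in testes. Testis endothelial cells, with endothelial markers at 2425 and 2050 CPM, held only 1 and 2 Aqp1 UMIs (1.52 and 3.38 CPM; 2.45 ± 1.31, SD, n = 2). Their mean was nevertheless the highest of any testis type, but this order rested on very few UMIs. In testis replicate 1, macrophages also held 1 UMI (1.39 CPM). TO myoid cells held 5 and 6 Aqp1 UMIs, and testis myoid cells held 0.

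Aqp4, the water channel of astrocyte endfeet, was the rarest member, with 29 UMIs in all kept cells. The rete testis-like cells of TOs held 2 and 6 UMIs (4.47 and 8.58 CPM; 6.53 ± 2.91, SD, n = 2), and 0 to 1 UMI was seen in each other TO type. In testes, round spermatids held 13 and 2 UMIs and elongating spermatids 2 and 1. Aqp3, an aquaglyceroporin of skin and kidney, had 51 UMIs, of which round spermatids of testes held 15 and 20 (0.678 and 1.49 CPM), elongating spermatids 4 and 3, and spermatocytes 4 and 3. Within round spermatids, 9 and 11 of the Aqp3 UMIs lay in germ cell cluster g11 and 4 and 5 in g21. TOs held 2 Aqp3 UMIs in all, 1 in a Leydig cell and 1 in a myoid cell.

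**Figure D2:**
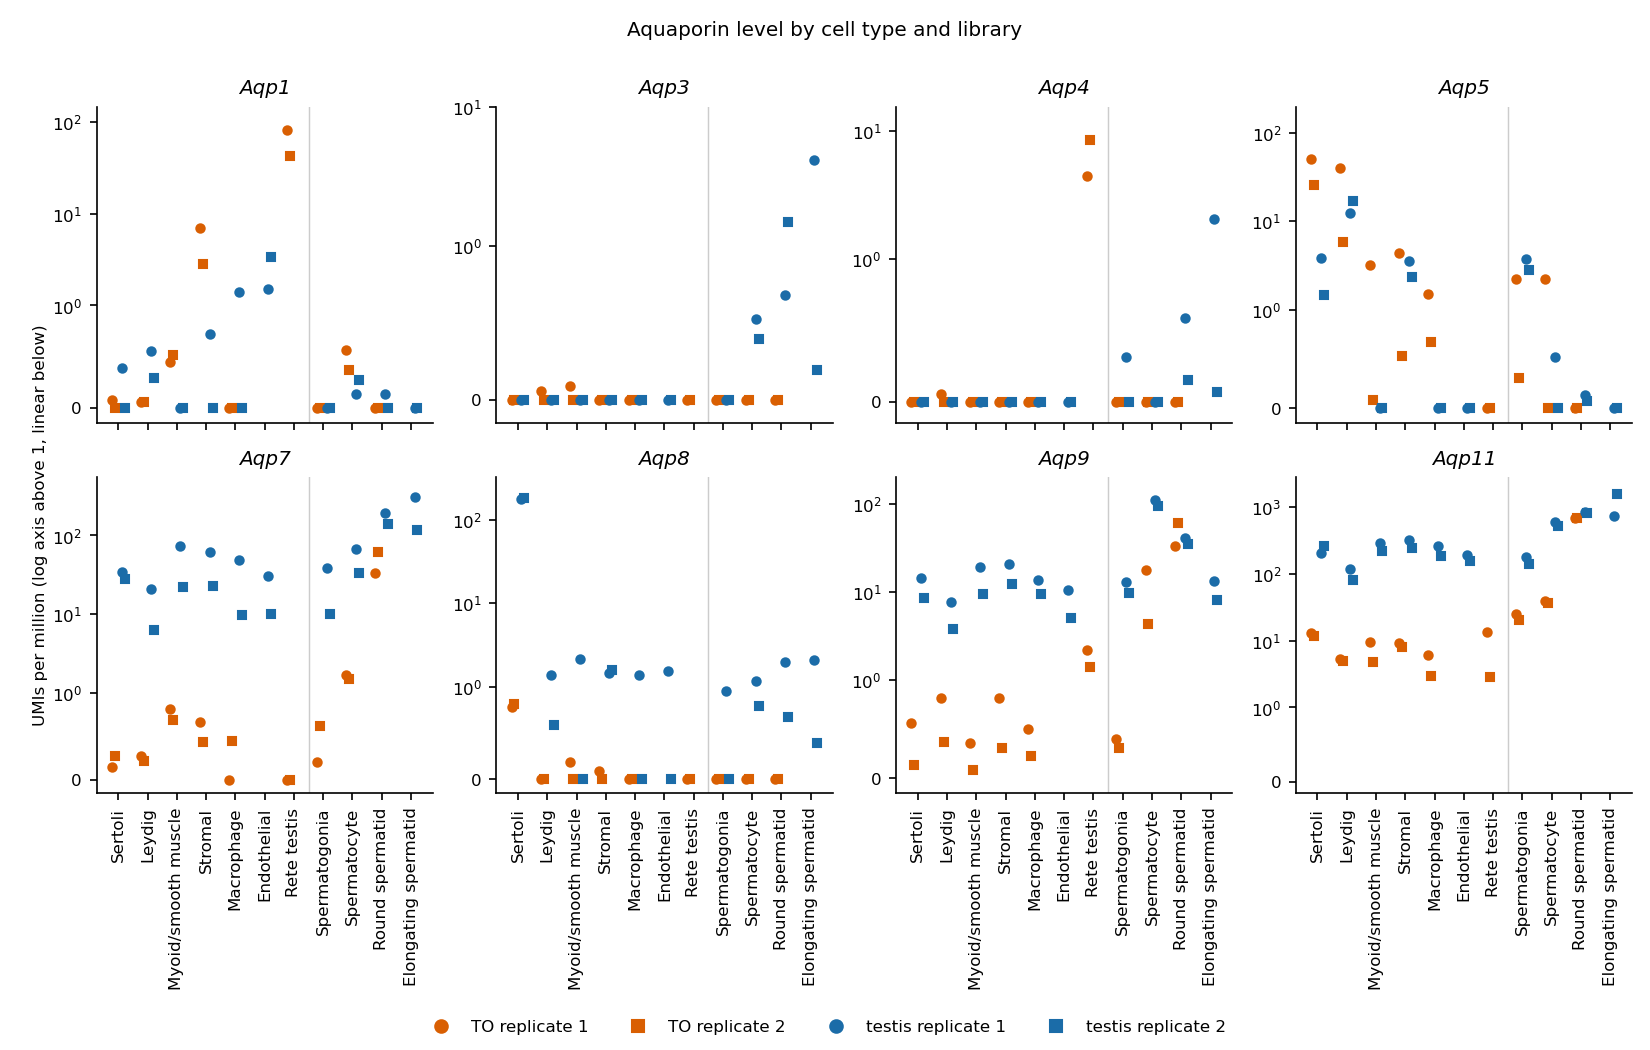
CPM of each of the 8 aquaporins in each cell type and library, on an axis that is linear below 1 and logarithmic above, where TO and testis libraries have separate colours. Aqp8 stood at 178 and 181 CPM in testis Sertoli cells, Aqp1 at 80.5 and 42.9 CPM in rete testis-like cells of TOs, and Aqp7, Aqp9 and Aqp11 were highest in germ cells.

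Aqp7, Aqp9 and Aqp11 were the aquaporins of germ cells, with 9811, 3517 and 68201 UMIs in the kept cells. Aqp7, the glycerol channel of fat cells and spermatids, was at 4236 and 1864 UMIs in testis round spermatids, or 192 and 139 CPM (165 ± 37.4, SD, n = 2). It was at 307 and 118 CPM in elongating spermatids (213 ± 134) and at 66.8 and 32.9 CPM in spermatocytes. Elongating and round spermatids overlapped, and round spermatids stood above spermatocytes. Aqp7 was seen in 45.8% and 35.1% of round spermatids, or in 24.0% and 17.2% after thinning, and in 10.5% and 17.2% of TO round spermatids, or 12.5% and 7.41% after thinning.

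Among the testis clusters named round spermatid, Aqp7 was lowest in g9 and highest in g21, which also carried the elongating spermatid markers at 62300 and 138563 CPM, against 4035 and 10407 CPM in g6. It was at 79.3 and 47.5 CPM in the cluster g9, 245 and 218 CPM in g6, and 428 and 265 CPM in g21, whose cells had Tnp1, Tnp2, Prm1 and Prm2, genes of the proteins that pack sperm chromatin, at a sum of 58895 and 134742 CPM. In the elongating cluster g5 it was at 381 and 149 CPM. In g3, which held 58 cells of testis replicate 1 and 1064 of replicate 2, it was at 310 and 38.1 CPM, so the libraries differed most there.

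Aqp9, an aquaglyceroporin that also passes other small uncharged solutes, was in testes a gene of spermatocytes, the meiotic cells. Testis spermatocytes held 865 and 731 UMIs, or 113 and 96.7 CPM (105 ± 11.4, SD, n = 2), in 24.5% and 22.7% of cells, or 13.9% and 12.2% after thinning. Round spermatids followed at 41.5 and 35.1 CPM (38.3 ± 4.49) and elongating spermatids at 13.4 and 8.11 CPM, and these 3 types did not overlap. Within spermatocytes it was lowest in cluster g10 (13.4 and 7.65 CPM), which had Dmc1 and Prdm9, genes of meiotic recombination, among its leading genes. It was highest in g16 (308 and 267 CPM), followed by g18 (196 and 186 CPM), g4 (160 and 135 CPM) and g15 (156 and 119 CPM).

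Aqp11, the intracellular member, was at 598 and 508 CPM in testis spermatocytes (553 ± 63.8, SD, n = 2), 824 and 810 CPM in round spermatids (817 ± 10) and 725 and 1536 CPM in elongating spermatids (1130 ± 573). Elongating spermatids overlapped round spermatids, and round spermatids stood above spermatocytes. It was found in 76.3% and 78.7% of round spermatids and in 82.2% and 99.1% of elongating spermatids, at medians of 2242, 2412, 2736 and 5522 UMIs. It was already at 1054 and 907 CPM in spermatocyte cluster g15 and at 1009 and 1055 CPM in round spermatid cluster g9, and reached 2298 CPM in cluster g3 of testis replicate 2. The 12 cells of g26, seen only in testis replicate 2, were at 3149 CPM. In testes, Aqp9 was thus highest in spermatocytes, and Aqp7 and Aqp11 in spermatids. In TOs Aqp9 was higher in round spermatids (33.3 and 60.8 CPM, from 9 UMIs in all) than in spermatocytes (18.0 and 4.41 CPM).

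**Figure D3:**
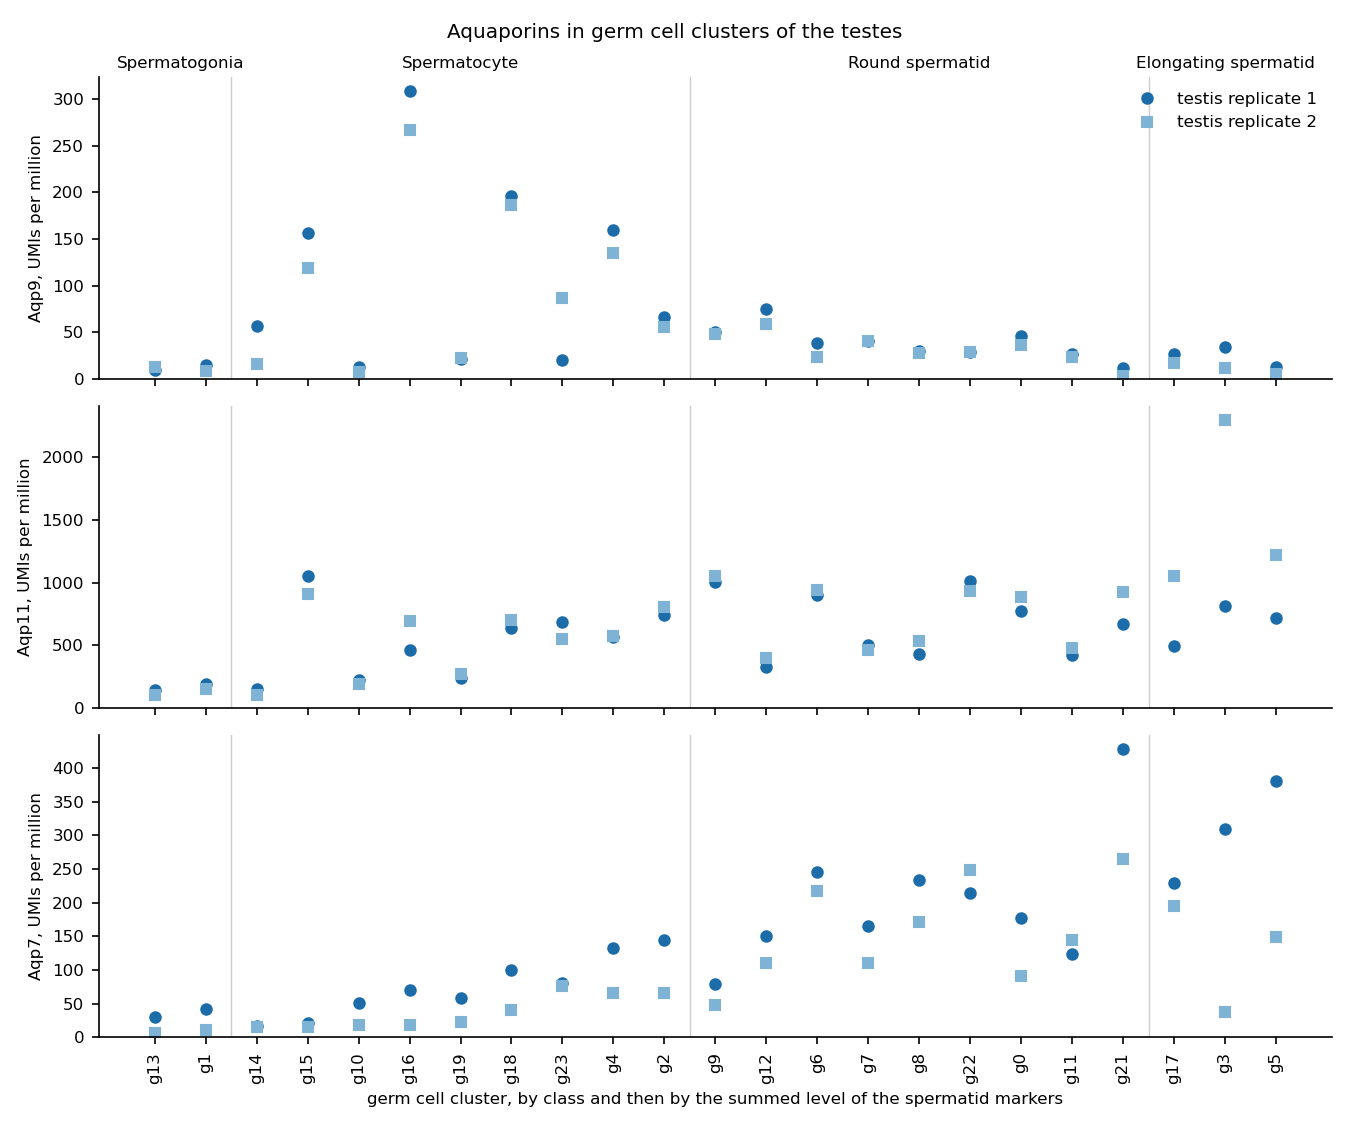
Aqp7, Aqp9 and Aqp11 in CPM in the germ cell clusters found in both testis libraries (g25 and g26, each found in 1, are not shown), 1 panel a gene, with clusters ordered by class and then by the summed spermatid markers and points for libraries. Aqp9 was highest in spermatocyte cluster g16 (308 and 267 CPM), Aqp7 in g21 (428 and 265 CPM) and, of the clusters shown, Aqp11 in g3 of replicate 2 (2298 CPM).

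In TO round spermatids, Aqp11 was at 41 and 78 UMIs, or 682 and 678 CPM (680 ± 3.11, SD, n = 2), just below the testis libraries without overlap. The log2 fold change was -0.93 (SE 0.43, adjusted p = 0.15, edgeR's quasi-likelihood test) and did not pass, and the log2 ratio of mean CPM was -0.27. Aqp9 was at 2 and 7 UMIs, or 33.3 and 60.8 CPM, on both sides of the testis values, with a log2 fold change of -0.26 (SE 0.62, adjusted p = 0.816), while the log2 ratio of mean CPM had the opposite sign, 0.30. Aqp7, also at 2 and 7 UMIs, fell by 2.36 on the log2 scale (SE 0.56, adjusted p = 0.00152). This Aqp7 call was lost without any 1 of TO replicate 1 (adjusted p = 0.157), TO replicate 2 (0.0803) or testis replicate 1 (0.131). In round spermatids 0.652% of all genes were called higher and 4.81% lower, and the TO cells lay in other clusters than most testis cells, with 6 and 11 in g9, 7 and 8 in g12 and none in g6, g11 or g21.

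TO spermatocytes differed more. Aqp7 fell by 5.23 (SE 0.55, adjusted p = 7.13e-06), Aqp11 by 4.14 (SE 0.34, adjusted p = 1.23e-06) and Aqp9 by 3.60 (SE 0.44, adjusted p = 2.62e-05) on the log2 scale. Their levels in TOs were 1.69 and 1.47 CPM for Aqp7, 38.9 and 36.4 CPM for Aqp11 and 18.0 and 4.41 CPM for Aqp9. Every TO library was below every testis library for each gene. As many as 19.2% of all genes were called higher and 29.2% lower in this comparison. Different clusters held the spermatocytes, since g10 held 172 of 301 and 217 of 300 TO cells but 247 of 2184 and 177 of 2172 testis cells.

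Within single clusters the differences were uneven. In g10, Aqp11 was at 25.7 and 23.3 CPM in TOs and 225 and 195 CPM in testes, and the 7 round spermatid markers together at 11.7 and 21.8 CPM in TOs and 715 and 389 CPM in testes. In g15, Aqp11 was at 777 and 584 CPM in the 12 and 9 TO cells and 1054 and 907 CPM in testes. In the round spermatid cluster g9 it was at 1311 and 1108 CPM in the 6 and 11 TO cells, above both testis libraries.

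Aqp9 in g16 was at 161 CPM in the 48 cells of TO replicate 1, against 308 and 267 CPM in testes, and in g15 at 86.3 and 175 CPM in TOs against 156 and 119 CPM. In g18 it was at 25.1 and 0.0 CPM in the 22 and 17 TO cells and 196 and 186 CPM in testes. The levels in TOs were thus near those of testes in g15 and far below them in g18, in few cells, and these cluster values were not tested. In g18 the spermatocyte markers summed to 3370 and 10378 CPM in TOs and 1239 and 1533 CPM in testes, so it joined unlike cells of the conditions. In g15 they summed to 1467 and 2277 CPM in TOs and 1216 and 1555 CPM in testes.

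In TO spermatogonia, the mitotic germ cells, Aqp11 was at 24.7 and 20.1 CPM, above every named TO somatic type without overlap, the nearest being Sertoli cells at 13.0 and 11.8 CPM. It was at 34.1 and 25.0 CPM in cluster g1 and at 10.7 and 10.7 CPM in cluster g13, which had Zbtb16, a gene of undifferentiated spermatogonia, among its leading genes. In testis spermatogonia it was at 177 and 137 CPM, where the round spermatid markers summed to 521 and 273 CPM, against 14.2 and 21.7 CPM in TOs. The fold change was -2.85 on the log2 scale (SE 0.21, adjusted p = 3.48e-06), and Aqp7 (-6.00) and Aqp9 (-4.90) were also called lower, against 0.247% of all genes called higher and 8.76% lower.

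The same 3 genes were called lower in macrophages, myoid cells and stromal cells of TOs. In macrophages, Aqp7 fell by 6.14, Aqp11 by 5.53 and Aqp9 by 4.77 on the log2 scale (adjusted p = 0.000481, 3.41e-06 and 0.000957). The log2 fold changes were -6.02, -5.18 and -5.97 in myoid cells and -6.21, -4.93 and -4.87 in stromal cells. The shares of all genes called higher and lower were 2.88% and 12.9% in macrophages and 4.06% and 18.1% in myoid cells. In Leydig cells the log2 fold changes were -5.80, -4.34 and -3.32, but these genes were left out of the calls, as was any gene whose CPM in the remaining cells of a condition came to 5 or more times its CPM in the type tested.

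In Sertoli cells, given without a test, Aqp7 was at 33.8 and 27.7 CPM in testes and 0.142 and 0.271 CPM in TOs. Aqp9 was at 14.4 and 8.74 CPM against 0.567 and 0.136 CPM, and Aqp11 at 200 and 256 CPM against 13.0 and 11.8 CPM. The pooled testis levels were 170-fold (64.8 to 634), 29.6-fold (14.4 to 68.7) and 17.5-fold (15.2 to 20.1) higher. These pool unlike clusters, since Aqp11 was at 162 CPM in cluster 7 and 490 CPM in cluster 15 of testis replicate 1. In testis replicate 2 it was at 109 CPM in cluster 24 and 623 CPM in cluster 23. Of all genes in Sertoli cells, 8.05% were called higher and 16.6% lower in TOs.

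Spermatid transcripts were present in every testis somatic type. In the 12 sums of the 6 testis somatic types, all 7 round spermatid markers were detected, at 157 to 981 CPM, and Tnp1, Tnp2, Prm1 and Prm2 were all detected, at 1544 to 10507 CPM. In the 12 sums of the 6 TO somatic types, 0 to 7 of the 7 markers were detected, at 0.0 to 6.91 CPM, and 0 to 4 of the 4 chromatin protein genes, at 0.0 to 1.57 CPM. All 11 genes were at 0 UMIs in the rete testis-like cells of TO replicate 1.

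In testis replicate 1, the round spermatid markers in somatic types ran at 15.0% to 37.0% of their level in all germ cells, and Aqp7 ran at 13.8% to 48.7%, Aqp9 at 14.3% to 38.5% and Aqp11 at 16.6% to 45.3%. In testis replicate 2 the markers ran at 9.71% to 30.7%, Aqp7 at 5.91% to 26.5%, Aqp9 at 10.8% to 35.4% and Aqp11 at 7.75% to 25.1%. The ranges of the 3 aquaporins thus overlapped those of the spermatid markers in both testis libraries. How much of their somatic level belonged to the somatic cells was not tested.

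**Figure D4:**
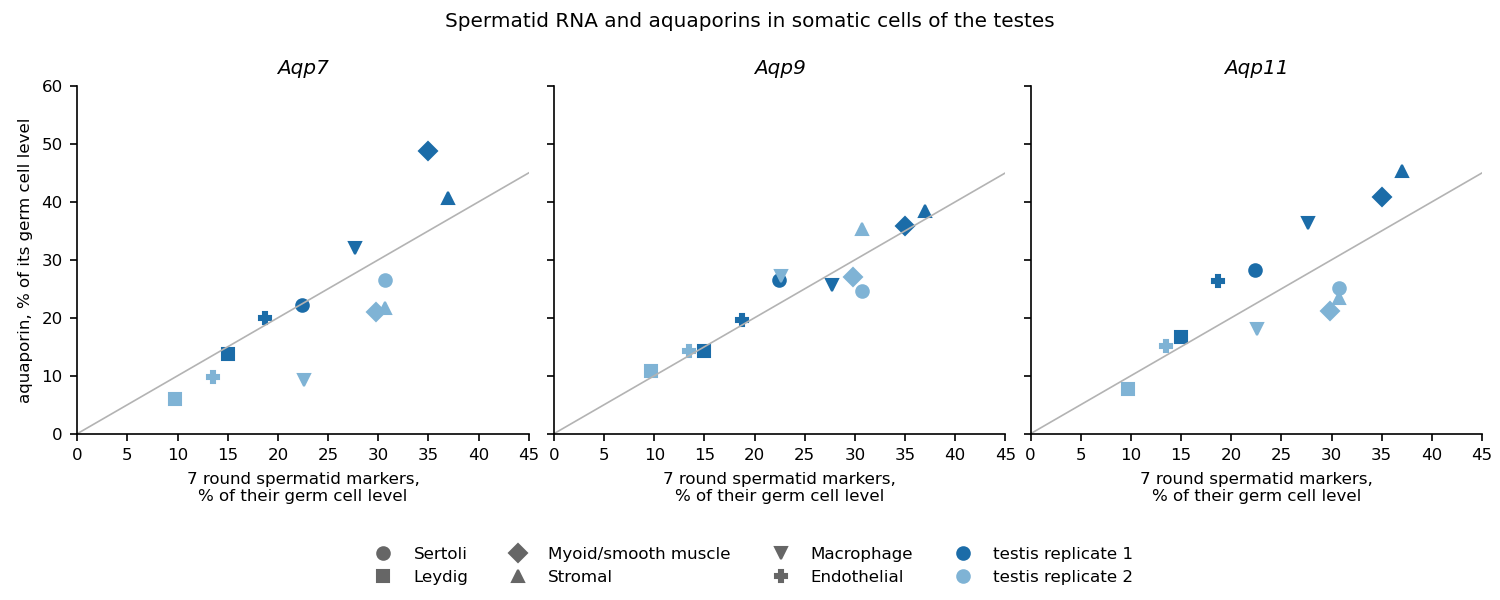
Level of Aqp7, Aqp9 and Aqp11 in each testis somatic type against the summed level of the 7 round spermatid markers, both as a percentage of the level in all germ cells of the same library, with a grey line where the 2 percentages are equal. In testis replicate 1 the markers lay at 15.0% to 37.0% and Aqp11 at 16.6% to 45.3%.

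Over the 7 types other than Sertoli cells, 24 tests of members passed the filter on low counts and 4 of these were left out. Of the 20 that could be called, edgeR's quasi-likelihood test called 16 lower in TOs, all of them Aqp7, Aqp9 or Aqp11, and 0 higher. DESeq2 also gave 0 higher and did not call Aqp7 in round spermatids. Of all genes in these types, edgeR called 3.42% to 29.2% lower and 0.247% to 19.2% higher. In macrophages, myoid cells, stromal cells and spermatogonia, Aqp7 and Aqp9 were at 0.822 CPM or below in TOs. There they passed the low-count filter through the testis libraries, so only a lower call was open to them. The same held for Aqp7 in spermatocytes (1.69 and 1.47 CPM in TOs) and Aqp11 in macrophages (6.05 and 2.91 CPM in TOs). At an unadjusted p below 0.05, edgeR gave 1 higher, Aqp1 in stromal cells. Aqp3, Aqp4 and Aqp8 were tested in none of the 7 types, since their counts were too low. With 2 libraries a group, an exact two-sided permutation test of a single value cannot go below p = 0.33.

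**Figure D5:**
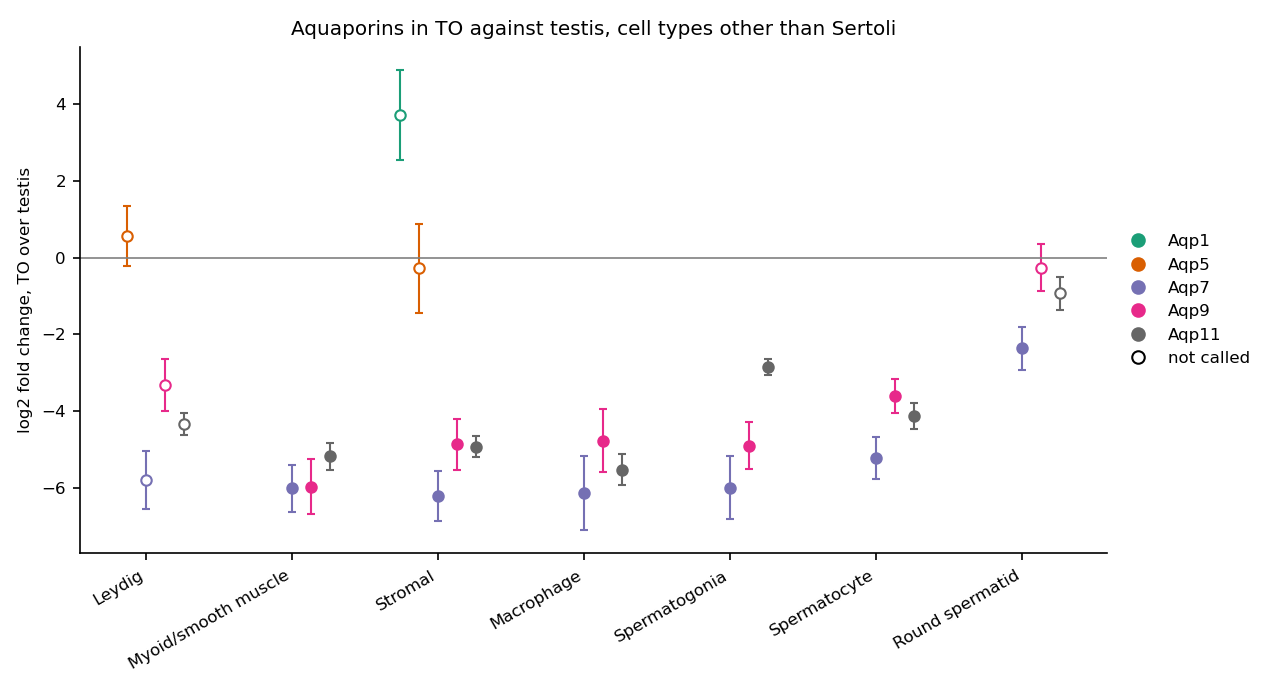
Fitted log2 fold change of TOs over testes for each aquaporin tested in each cell type other than Sertoli cells, with standard errors as bars and called genes marked. Aqp7, Aqp9 and Aqp11 lay below 0, and Aqp1 in stromal cells lay at 3.73.

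The pattern of each member over 37 sums of a library and cell type was set beside that of 11666 genes as Pearson's r of log2(CPM + 1). The sums share libraries, depth and spermatid RNA, so r is a description. Aqp8 was closest to Apoa2 (0.923), Gm9112 (0.895) and Dmrtc1b (0.894), and Aqp5 to Prxl2a (0.811), Rarres1 (0.789) and Inha (0.784). Aqp1 was closest to Bcat1 (0.912), Emx2os (0.892) and Alox12e (0.877). Aqp7 was closest to 1700109G14Rik (0.993), Cypt2 (0.992) and Gpx6 (0.99), Aqp9 to Lrrc6 (0.977), Ptchd3 (0.975) and Spag6l (0.974), and Aqp11 to Dnajb3 (0.989), Spa17 (0.988) and Tcp11 (0.987). Among the members, r was 0.953 for Aqp7 with Aqp11 and 0.073 for Aqp5 with Aqp8.

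Genes around the aquaporins were followed as 6 lists, of other aquaporins, ion and pH transport, the volume-regulated anion channel, glycerol handling, the scaffold that holds Aqp4, and urea transporters. In 8 cell types, 250 tests of these genes could be called, of which 15 (6.0%) were higher and 31 (12.4%) lower in TOs. Of all genes, weighted by the number of these tests in each type, 4.45% were higher and 13.1% lower, so the listed genes as a whole were near the share of all genes. The median log2 fold change of the listed genes ran from -0.29 in myoid cells to 0.42 in macrophages, beside -0.33 to 0.10 for all genes over the 8 types. The list of other aquaporins gave 0 calls in 3 tests by edgeR and 1 lower at an unadjusted p below 0.05, and DESeq2 called Aqp2, the water channel of the kidney collecting duct, lower in Leydig cells.

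Glycerol handling had the most calls, 18 lower (34.6%) and 2 higher (3.85%) in 52 tests, beside 14.0% and 4.86% of all genes weighted in the same way. Its median was below 0 in each of the 8 types, from -0.41 in Leydig cells to -2.99 in spermatocytes. Gk2, a glycerol kinase of spermatids, was lower in 6 types, with log2 fold changes of -4.59 in spermatocytes to -5.45 in Sertoli cells. Its levels in Sertoli cells were 3.26 and 3.39 CPM in TOs and 142 and 165 CPM in testes, beside the spermatid markers given above. In testis round spermatids Gk2 was at 720 and 591 CPM, Pnpla2 at 392 and 266 CPM and Gpd2 at 249 and 270 CPM, and the part of spermatid RNA in the somatic values of these 3 genes was not tested. Pnpla2, the main lipase of stored fat, was lower in the same 6 types, at -1.13 in Sertoli cells to -3.68 in spermatocytes. Gpd2, the mitochondrial glycerol phosphate dehydrogenase, was lower in 4 types and most in spermatocytes, at -4.16. Gk, the glycerol kinase of somatic tissues, was higher, by 2.64 in macrophages (31.8 and 33.3 CPM against 4.17 and 8.01 CPM) and by 2.28 in spermatocytes. Plin4 fell by 3.18 in myoid cells. Without the low-count filter, this Plin4 call and the spermatocyte call of Gk were lost (adjusted p = 0.0177 and 0.0105 by edgeR).

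Ion and pH transport gave 9 calls higher (6.82%) and 5 lower (3.79%) in 132 tests, beside 4.47% and 13.2% of all genes. In Sertoli cells, Slc12a4, a potassium chloride cotransporter, was 3.08 higher (31.7 and 35.1 CPM against 2.72 and 6.56 CPM), and Atp1b2, a subunit of the sodium pump, 1.45 higher on the log2 scale. Slc9a3r1, a scaffold of membrane transporters, fell by 2.19 in Sertoli cells (11.6 and 15.7 CPM against 47.4 and 85.9 CPM) and was 3.09 higher in Leydig cells (100 and 127 CPM against 16.4 and 9.12 CPM). The groups did not overlap for any of these. Without the low-count filter the Leydig call of Slc9a3r1 was lost (adjusted p = 0.0195 by edgeR). Kcnj10 was 4.86 higher in macrophages, Car14 2.58 higher in stromal cells, where Fxyd5 fell by 1.16, and Atp1b2 2.73 and Clcn3 1.30 higher in spermatocytes. Atp1a4, the sodium pump subunit of sperm, had log2 fold changes of -2.06 in myoid cells, -3.67 in spermatocytes and -1.98 in stromal cells. DESeq2 did not call Kcnj10 in macrophages (adjusted p = 0.0144) or Atp1a4 in spermatocytes (0.101). Without the low-count filter, edgeR lost Clcn3 in spermatocytes (adjusted p = 0.0262) and Atp1a4 in myoid cells (0.0294) and spermatocytes (0.0134). At 3000 UMIs or more, it lost Fxyd5 (0.0167) and Atp1a4 (0.0336) in stromal cells.

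The scaffold that holds Aqp4, built around dystrophin and syntrophins, gave 4 calls higher (11.8%) and 3 lower (8.82%) in 34 tests, beside 3.78% and 12.2% of all genes. Utrn and Dtna were higher in Leydig cells, by 1.70 and 2.36 on the log2 scale, and at -1.74 and -1.65 in myoid cells, where Sntb1 was at -1.52. Without the low-count filter these 5 calls were lost (adjusted p = 0.0256 to 0.0688), and the 3 myoid calls were also lost without either testis library (adjusted p = 0.047 to 0.222). Dmd was 1.28 higher in Sertoli cells and 3.46 higher in round spermatids (499 and 356 CPM against 21.8 and 26.4 CPM), a call lost without TO replicate 1 (adjusted p = 0.0298) or TO replicate 2 (0.0259). Of the volume-regulated anion channel, 3 calls in 24 tests (12.5%, beside 12.2% of all genes) were lower, all of Lrrc8b, at -2.47 in Leydig cells, -2.73 in spermatocytes and -1.92 in spermatogonia, and 0 were higher by edgeR or DESeq2, beside 6 higher at an unadjusted p below 0.05. Slc14a2, a urea transporter, was at -3.56 in myoid cells and -3.38 in spermatocytes. Its myoid call was lost without the low-count filter (adjusted p = 0.0192 by edgeR) and at 3000 UMIs or more (0.0226). The myoid values of Utrn, Dtna and Sntb1 and the spermatocyte value of Lrrc8b were named after their values were seen.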

How the data were processed

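Unsorted cells of 2 TO and 2 testis libraries were compared. UMI counts per gene and barcode were deposited by the authors as filtered 10x matrices made with Cell Ranger 7.1.0 on mm10, per the submitters' processing notes. A barcode stayed in if it had 1000 to 5000 genes, no more than 20000 UMIs and a mitochondrial share of 10% or less, and the highest Scrublet scores were removed (0.8% per 1000 barcodes), in place of the DoubletFinder of the study. Counts were scaled to 10000 a cell, and 2000 variable genes without the aquaporins gave 30 components (20 for germ cells), joined by an own implementation of Harmony (theta 2, sigma 0.1, lambda 1) and clustered by Leiden (20 neighbours, resolution 1) in scanpy 1.11.5 (Python 3.11.15). A cluster was named from at least 3 markers seen in 10% of its cells and from its leading 10 genes. It stayed unnamed if another type had more markers among those genes. It also stayed unnamed if its median UMIs fell below 0.33 of the median of all cells clustered together, with none of its markers leading. Naming was repeated within each condition. Names were rebuilt here and may differ from those of the study.

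Raw UMIs were summed per library and type with at least 10 cells. The main test was edgeR 4.0.16 (R 4.3.3), quasi-likelihood with TMM and filterByExpr, two-sided, without a replicate block, over all genes with Benjamini-Hochberg adjustment, and calls needed an adjusted p below 0.01 and a log2 fold change beyond 1. DESeq2 1.42.0, other size factors, filters, clusterings, left-out libraries and the replicate block were alternatives. The limit of at least 3000 UMIs was chosen after seeing the data. Shares of cells were also taken after thinning to 1500 UMIs, which left out 116 and 24 TO cells. Scripts were tested on simulated data. Intervals are exact at 95%, and floors are 3 counts. Named were all members, list genes called in a type (at most the 5 largest in each direction), markers used to check a type, and the 3 genes most like each member. Some called list genes are counted but not reported by name here. The members and lists were chosen with earlier results of these data known. Positions are from GENCODE vM21, which held 32158 of the 32285 gene IDs.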

Additional observations from a re-analysis of the deposited data

Results flagged for a closer look

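The effect of TOs against testes differed between spermatocytes and round spermatids for the 3 germ cell aquaporins, by an interaction term in edgeR with Benjamini-Hochberg adjustment over all genes. The spermatocyte effect minus the round spermatid effect was -2.72 for Aqp7 (log2, adjusted p = 0.00814), -3.46 for Aqp9 (adjusted p = 0.000124) and -3.13 for Aqp11 (adjusted p = 2.53e-28). Each was lower in both TO libraries in spermatocytes. The part of spermatid RNA in the testis spermatocyte levels was not tested. TO round spermatids were only 19 and 29 cells, and different clusters held the TO and testis cells of both types. The p-values rest on 4 libraries. For Aqp11, TO round spermatids held 119 UMIs in all, and the separate fits had an SE of 0.34 in spermatocytes and 0.43 in round spermatids. The size of its p-value is therefore not a measure of spread between libraries.

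Somatic types were compared by the same interaction term for 3 genes of the lists. These genes were taken because they were already called in opposite directions in the compared types. A difference was thus built in, and the p-values are no independent test of it. For Slc9a3r1 the Sertoli effect minus the Leydig effect was -5.44 (adjusted p = 0.000143). For Dtna and Utrn the myoid effect minus the Leydig effect was -4.34 (adjusted p = 0.00274) and -3.67 (adjusted p = 0.00122). The TO and testis values of these genes did not overlap in either type. Without the low-count filter, the Leydig calls of Slc9a3r1, Dtna and Utrn were lost (adjusted p = 0.0195, 0.0342 and 0.0262 by edgeR).

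Aqp5 was higher in both TO libraries in Sertoli cells and in myoid cells and lower in both in spermatogonia, where the pooled testis level was 2.38-fold the TO level (1.06 to 5.51). This difference between types was not tested. The myoid sums held 36 and 1 Aqp5 UMIs in TOs and 0 in testes, so the myoid value rested on TO replicate 1. The spermatogonia sums held 11 and 1 Aqp5 UMIs in TOs and 12 and 4 in testes.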

How the results depend on the processing

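No called result changed direction under the alternatives run. Of the values that were not called, Aqp5 in Leydig cells (0.56) was -1.41 without TO replicate 1 and up to 1.37 with another library left out, Aqp5 in stromal cells (-0.28) was 0.11 without testis replicate 1 and down to -0.60 with another left out, and Aqp9 in round spermatids (-0.26) was 0.05 without TO replicate 1, down to -1.13 with another left out, 0.02 without doublet removal and 0.00 without Harmony. The Aqp8 log2 ratio in Sertoli cells, -7.82, was -7.61 without doublet removal, -7.53 without upper limits, -7.92 at resolution 2, -8.07 without Harmony, -8.09 at 3000 UMIs or more, and -7.85 to -7.79 with a library left out. That of Aqp5, 3.84, was 3.25 to 4.72 with a library left out. Aqp11 in testis round spermatids, 817 CPM, was 797 without doublet removal, 860 without upper limits, 785 at resolution 2, 805 without Harmony and 886 at 3000 UMIs or more, and Aqp9 in testis spermatocytes, 105 CPM, was 123 without upper limits.

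The 16 lower calls of members became 11 without upper limits and 11 at 3000 UMIs or more, and 9 to 14 with a library left out, the 9 without testis replicate 1. The 5 calls lost without upper limits kept adjusted p of 8.5e-06 to 0.00214 by edgeR and were lost because the genes were left out by their level in other cells. At 3000 UMIs or more, 2 were lost in that way and 3 (Aqp7 and Aqp9 in macrophages, Aqp7 in round spermatids) gave no value. The higher calls went from 0 to 1 without the low-count filter, by Aqp1 in stromal cells (3.87, adjusted p = 0.00162). Aqp7 in round spermatids was lost in DESeq2 (adjusted p = 0.0125), without doublet removal (0.038), at resolution 2 (0.0171) and without Harmony (0.0323), while Aqp11 there was called at resolution 2 (-2.37, adjusted p = 0.00216) and without Harmony (-3.74, adjusted p = 0.00391). In myoid cells Aqp7, Aqp9 and Aqp11 were lost without either testis library (adjusted p = 0.0321 to 0.0662). Aqp9 was lost in macrophages without either TO library (0.0753 and 0.152) and in stromal cells without testis replicate 1 (0.0201). The causes were not tested.

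The 31 lower list calls became 57 with no gene left out and 23 to 36 with a library left out, and the 15 higher ones 14 to 17. Without the low-count filter 16 of the 46 list calls were lost. With the replicate block, members had 16 lower and 0 higher calls, and lists 38 and 18. Same-numbered libraries deviated together with correlations of -0.008 to 0.174 over 8 types, and with 2 pairs they share only a number. In round spermatids 11.9% of calls were higher by edgeR and 23.1% by DESeq2, where the median of all genes was -0.49 and -0.37. Low counts limit Aqp1, Aqp3 and Aqp4 in most types.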

Other observations

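An unnamed cluster of 53 cells of TO replicate 1, with Sparc, Aard and Cldn11 among its leading genes, held 49 Aqp5 UMIs (109 CPM), against 1 UMI (11.1 CPM) in its 9 cells of TO replicate 2 and 0 in its 108 and 42 testis cells.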
